A study of Homo sapiens with 56 samples.

Results

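Genes linked to growth arrest downstream of the tumour suppressor p53 were followed, 10 of the 59081 gene symbols that both deposited count tables hold: CDKN1A, BTG2, GADD45A, GADD45B, PLK2, PLK3, PHLDA3, SFN, ZMAT3 and KLLN. They were chosen by name from a list, without use of their measured values in the rule, but with earlier results of these data known. The other gene lists below were also chosen with those results known. A filter on low counts left 9 of them to be tested in Mv4;11 (SFN was removed) and 8 in KG-1 (SFN and PHLDA3 were removed), among 20495 and 18618 genes tested.

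Mv4;11 and KG-1 are established human acute myeloid leukaemia cell lines, and their RNA was sequenced in bulk. In each line, cells were given PMR-116 at 1 µM, CX-5461 at 1 µM or a citrate and phosphate buffer as vehicle, for 3 h or 12 h. Each compound had vehicle libraries of its own at each time, so the comparisons of the compounds share no control library. There were 3 libraries in each of 8 groups of Mv4;11 and 4 in each of 8 groups of KG-1, 56 libraries in 16 groups. All groups of a line come from 1 line and, per the labels, 1 batch (batch 1 for Mv4;11, batch 2 for KG-1; the labels do not say a batch of what), so line and batch cannot be told apart. The labels number the replicates but do not say that they are separate cultures, and the p-values then measure only the spread between these libraries, which may be technical.

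Both compounds block RNA polymerase I, which makes the precursor of ribosomal RNA. When ribosome production is disturbed, free ribosomal proteins can hold the ubiquitin ligase MDM2, p53 accumulates, and p53 raises transcription of genes that stop the cell cycle, repair DNA or start cell death. CDKN1A encodes p21, an inhibitor of cyclin-dependent kinases and the best known arrest gene of p53, and the other genes act on growth, checkpoints, kinase signalling or RNA stability.

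The promoters of CDKN1A, BTG2 and PLK2 are printed because these genes rose with both compounds at both times in Mv4;11, as did others of the list. The sequences are from RefSeq (GRCh38.p14) and run 5′ to 3′ on the gene's strand, from 250 bases before to 50 bases after the start. They lie at chr6:36678464-36678763 on the plus strand (CDKN1A), chr1:203305269-203305568 on the plus strand (BTG2) and chr5:58460037-58460336 on the minus strand (PLK2). Capitals mark an exact match to the p53 half-site, the repeat that makes up a p53 response element when it stands in a pair.
CDKN1A: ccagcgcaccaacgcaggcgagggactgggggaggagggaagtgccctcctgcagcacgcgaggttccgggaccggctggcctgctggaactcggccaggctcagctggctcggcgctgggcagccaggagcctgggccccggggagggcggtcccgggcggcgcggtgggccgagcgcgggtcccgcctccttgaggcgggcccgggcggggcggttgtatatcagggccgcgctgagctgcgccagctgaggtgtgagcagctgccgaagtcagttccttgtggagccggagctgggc
BTG2: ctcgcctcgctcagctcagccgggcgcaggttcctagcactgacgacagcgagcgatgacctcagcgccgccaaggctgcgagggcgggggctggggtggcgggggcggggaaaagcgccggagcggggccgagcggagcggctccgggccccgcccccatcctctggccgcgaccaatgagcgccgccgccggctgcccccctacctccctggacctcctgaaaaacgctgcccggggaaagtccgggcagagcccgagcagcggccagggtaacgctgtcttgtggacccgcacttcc
PLK2: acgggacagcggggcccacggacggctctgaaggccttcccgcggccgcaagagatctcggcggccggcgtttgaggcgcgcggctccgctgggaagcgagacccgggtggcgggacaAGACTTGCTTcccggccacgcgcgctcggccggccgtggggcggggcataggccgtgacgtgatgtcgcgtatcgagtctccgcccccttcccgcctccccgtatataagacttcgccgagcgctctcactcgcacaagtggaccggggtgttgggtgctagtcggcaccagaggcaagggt

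The reference table held promoters for 8 of the 10 genes; GADD45A and PHLDA3 had no entry. An exact half-site, searched on both strands, was found in the window of PLK2 alone, beginning 132 bases before the start, and 6.63% of 35116 promoter windows of the same length hold one. With 1 mismatch allowed outside the core C and G, PLK2, SFN, ZMAT3 and GADD45B had a match, as do 45.1% of all windows. The motif TATAAA, also searched on both strands, was in the GADD45B window and in 11.5% of all windows. These are matches of letters in a short window and show no binding. Half-sites with more mismatches were not searched for, so a window without a match may still hold a p53 element. The described p53 elements of CDKN1A lie further upstream than the window reaches.

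Levels are given in CPM, a gene's count scaled to libraries of equal size within a line, so values serve to compare libraries for 1 gene and not 1 gene with another. CDKN1A lay between 99.0 and 124 CPM in the 12 vehicle libraries of Mv4;11, and between 1.55 and 3.47 CPM in the 16 of KG-1. PLK2 lay between 10.1 and 15.4 CPM in Mv4;11 and between 0.164 and 0.655 CPM in KG-1, and PHLDA3 between 32.4 and 41.7 CPM and between 0 and 0.0653 CPM. BTG2 and GADD45A also sat higher in Mv4;11 (29 to 38.5 CPM for BTG2, 7.12 to 9.49 CPM for GADD45A) than in KG-1 (6.82 to 9.65 CPM and 2.11 to 3.10 CPM). ZMAT3 went the other way, at 16.9 to 22.4 CPM in Mv4;11 and 25.5 to 43 CPM in KG-1. The tables of the lines were scaled separately, and these levels across lines carry no test.

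Both compounds raised the arrest genes of Mv4;11 within 3 h. Of the 9 genes tested, 7 rose with PMR-116 at 3 h, 7 with CX-5461 at 3 h, 9 with PMR-116 at 12 h and 7 with CX-5461 at 12 h, and none fell. Over all genes tested in Mv4;11, 24.1%, 11.7%, 43.2% and 31.4% were called in the same comparisons, and 11%, 5.05%, 20.7% and 14.8% were called as higher. The median log2 fold change of the 9 genes was 1.24, 1.69, 1.28 and 1.32, against medians of 0.00, 0.00, 0.01 and 0.04 over all genes. Calls here are adjusted p-values under 0.05 from edgeR's quasi-likelihood test, with Benjamini-Hochberg adjustment over all genes tested. Every treated library lay above every vehicle library for 8, 7, 9 and 7 of the 9 genes, which held for 17.8%, 13.4%, 25.7% and 23.4% of all genes. In a bulk culture, more RNA per cell and more cells with the RNA cannot be told apart.

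CDKN1A showed the largest change of the 9 genes in each of the 4 comparisons of Mv4;11. With PMR-116 at 3 h its vehicle libraries measured 100.4, 118 and 124 CPM and its treated libraries 661, 625 and 650.2 CPM. With CX-5461 at 3 h the vehicle libraries measured 99.0, 104 and 122 CPM and the treated libraries 1170.1, 1089.5 and 1268 CPM. The treated libraries lay far above every vehicle library with either compound, and higher with CX-5461 than with PMR-116. The increase was 5.66-fold for PMR-116 (log2 fold change 2.50 ± 0.09 SE, adjusted p = 1.56e-14) and 10.9-fold for CX-5461 (3.44 ± 0.10, adjusted p = 2.72e-17).

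At 12 h CDKN1A was still high. The vehicle libraries of PMR-116 measured 110, 103 and 105 CPM and the treated ones 444, 369.9 and 482 CPM, and those of CX-5461 measured 109.9, 100.03 and 113 CPM against 527, 471 and 511 CPM. Treated and vehicle libraries did not overlap. The log2 fold changes were 2.03 ± 0.09 for PMR-116 (4.07-fold, adjusted p = 3.99e-14) and 2.23 ± 0.09 for CX-5461 (4.68-fold, adjusted p = 8.81e-14).

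**Figure D1:**
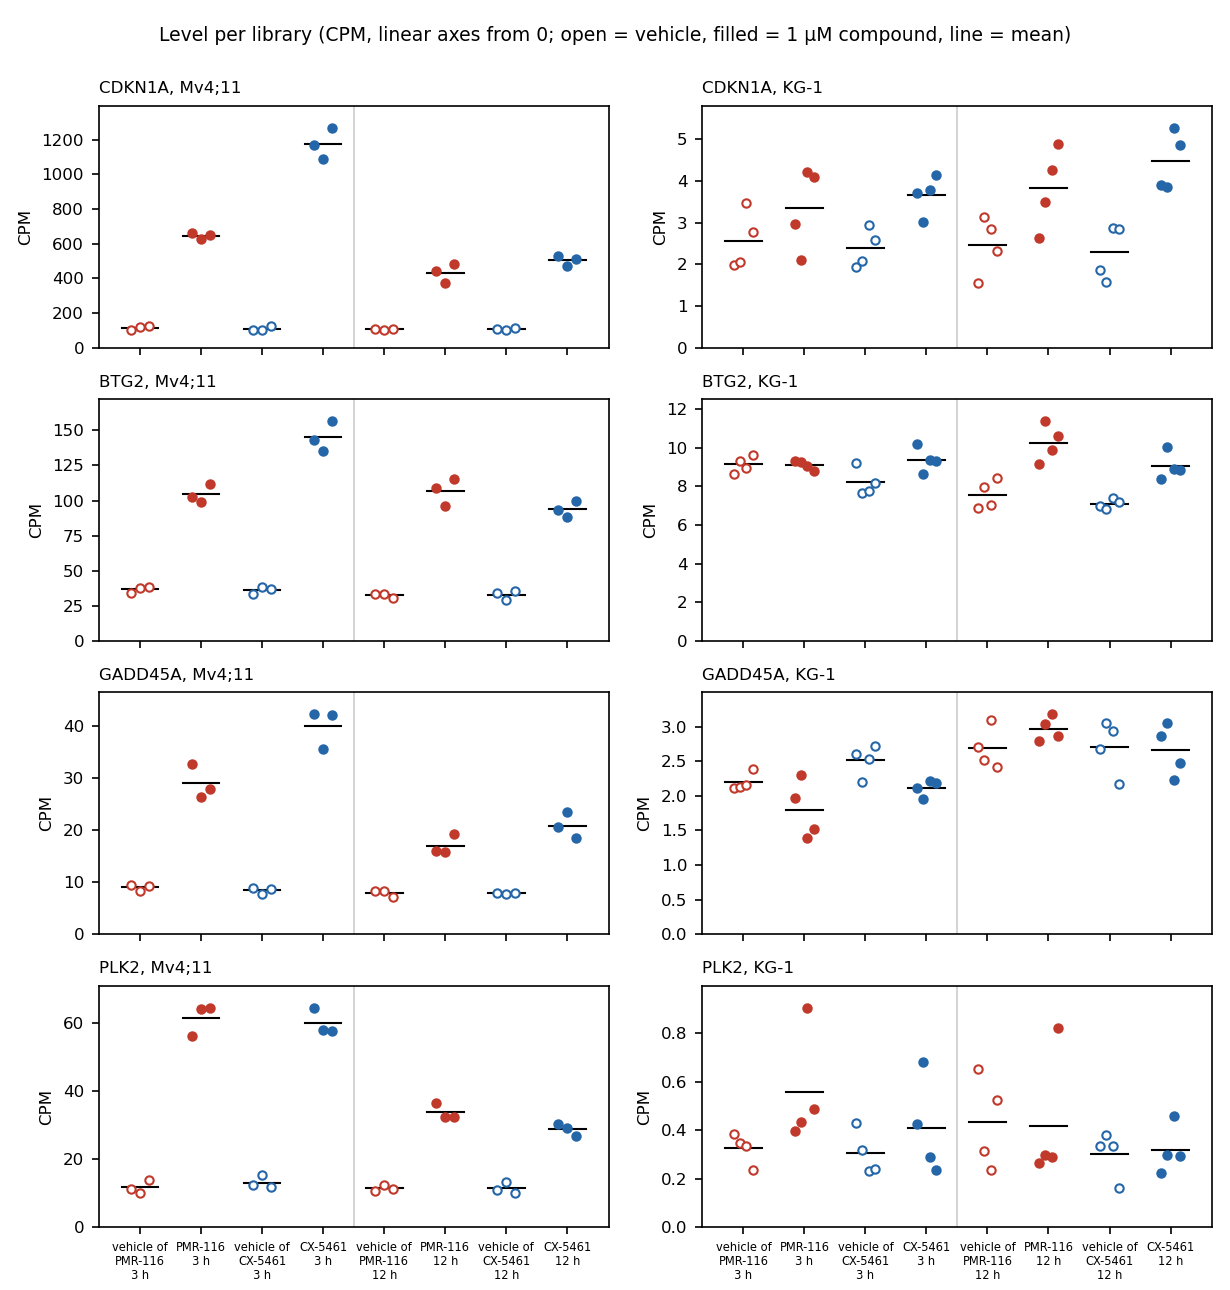
Level in CPM (linear axes from 0) of CDKN1A, BTG2, GADD45A and PLK2 in every library of Mv4;11 and KG-1, by compound and time; open points are vehicle libraries, filled points treated libraries and lines group means. In Mv4;11 the treated points lie above the vehicle points in every pair of groups (CDKN1A at 3 h, 625 to 661 CPM with PMR-116 and 1089.5 to 1268 CPM with CX-5461), while in KG-1 most pairs overlap.

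BTG2 encodes a small antiproliferative protein that recruits the deadenylation machinery to messenger RNA. Its Mv4;11 libraries moved from 34.2, 37.5 and 38.5 CPM in vehicle to 102, 99.2 and 112 CPM with PMR-116 at 3 h, and from 33.5, 38.4 and 37.3 CPM to 143, 136 and 157 CPM with CX-5461 at 3 h. At 12 h they moved from 33.2, 33.6 and 30.8 CPM to 109, 96.1 and 116 CPM with PMR-116, and from 34.2, 29 and 35.9 CPM to 93.0, 88.6 and 99.7 CPM with CX-5461. No treated library came near a vehicle library in any of the 4 comparisons. The log2 fold changes at 3 h were 1.505 ± 0.09 for PMR-116 (adjusted p = 9.82e-12) and 1.99 ± 0.09 for CX-5461 (adjusted p = 8.71e-14), and at 12 h 1.72 ± 0.09 (adjusted p = 1.48e-13) and 1.503 ± 0.09 (adjusted p = 9.54e-12).

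GADD45A, a stress sensor that binds CDK1, PCNA and the kinase MAP3K4, rose most at 3 h. Vehicle libraries at 9.49, 8.198 and 9.19 CPM stood against 32.6, 26.3 and 27.9 CPM with PMR-116, and vehicle libraries at 8.88, 7.73 and 8.67 CPM against 42.2, 35.6 and 42.1 CPM with CX-5461. By 12 h the treated libraries measured 15.9, 15.8 and 19.2 CPM with PMR-116 and 20.5, 23.4 and 18.4 CPM with CX-5461, while the vehicle libraries measured 8.24, 8.37 and 7.12 CPM and 7.95, 7.77 and 7.83 CPM. The treated libraries remained above the vehicle libraries at both times and sat closer to them at 12 h. Its log2 fold change went from 1.69 ± 0.11 to 1.1 ± 0.11 with PMR-116 and from 2.24 ± 0.11 to 1.40 ± 0.11 with CX-5461 (highest adjusted p = 2.28e-08).

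Its relative GADD45B, which is better known as a target of NF-kB and TGF-beta signalling, was called in Mv4;11 with PMR-116 at 12 h alone. With CX-5461 its log2 fold change was -0.21 ± 0.12 at 3 h (adjusted p = 0.275) and -0.02 ± 0.12 at 12 h (adjusted p = 0.927). With PMR-116 at 12 h its vehicle libraries at 24.1, 23.6 and 20.7 CPM stood against 40.3, 31.6 and 31.2 CPM, an increase of 0.59 ± 0.11 (adjusted p = 0.00016). At 3 h the PMR-116 libraries, at 32.03, 26.7 and 25.9 CPM, lay just above their vehicle libraries at 25.1, 20.3 and 23.6 CPM, and the log2 fold change of 0.29 ± 0.11 missed the threshold (adjusted p = 0.0698). That value passed it when only library totals were used for scaling (log2 fold change 0.33), without the filter on low counts (0.33), with a stricter filter (0.31) and with a replicate block (0.29).

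PLK2 and PLK3 are stress-induced polo-like kinases, PLK2 a kinase of centriole duplication and synapses and PLK3 a checkpoint kinase. PLK2 was second only to CDKN1A among the 9 genes with PMR-116 at 3 h. Its libraries went from 11.2, 10.1 and 13.7 CPM to 56.01, 63.9 and 64.4 CPM with PMR-116, and from 12.3, 15.4 and 11.7 CPM to 64.2, 57.7 and 57.4 CPM with CX-5461. At 12 h they went from 10.8, 12.4 and 11.3 CPM to 36.5, 32.3 and 32.4 CPM, and from 10.8, 13.4 and 10.2 CPM to 30.3, 29.2 and 26.7 CPM. The treated libraries of both compounds overlapped at 3 h, unlike those of CDKN1A, and at 12 h those of CX-5461 lay just below those of PMR-116. The log2 fold changes were 2.39 ± 0.12 and 2.18 ± 0.12 at 3 h, then 1.56 ± 0.12 and 1.33 ± 0.12 at 12 h (highest adjusted p = 6.12e-09). PLK3 rose less. Its libraries went from 12.0, 14.1 and 13 CPM to 22.5, 23.1 and 24.3 CPM with CX-5461 at 3 h (log2 fold change 0.84 ± 0.09, adjusted p = 7.62e-07), and its other log2 fold changes were between 0.47 and 0.55, all called.

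PHLDA3, which competes with AKT for membrane lipids and so restrains AKT signalling, was a gene of the early time. Its libraries moved from 34.3, 38.3 and 40.6 CPM to 114, 120.2 and 130.4 CPM with CX-5461 at 3 h (1.69 ± 0.09, adjusted p = 2.84e-12) and from 32.4, 36.5 and 41.7 CPM to 95.2, 85.8 and 81.0 CPM with PMR-116 (1.24 ± 0.09, adjusted p = 7.09e-10). At 12 h the treated libraries were at 50.9, 46.02 and 53.4 CPM with PMR-116, against vehicle at 35.7, 37.8 and 33.5 CPM (0.49 ± 0.09, adjusted p = 8.13e-05). The rise with CX-5461 at 12 h was 0.79 ± 0.09 (adjusted p = 2.7e-07).

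ZMAT3, a zinc finger protein that binds RNA and controls splicing and message stability, was a gene of the late time with PMR-116. Its libraries went from 20.9, 22.4 and 19.6 CPM to 36.2, 32.5 and 35.5 CPM at 3 h and from 18.4, 17.1 and 19.6 CPM to 44.2, 45.1 and 55.96 CPM at 12 h. The log2 fold change went from 0.73 ± 0.10 (adjusted p = 5.16e-06) to 1.40 ± 0.10 (adjusted p = 2.94e-11). With CX-5461 it was 1.1 ± 0.10 at 3 h and 1.32 ± 0.10 at 12 h (highest adjusted p = 1.76e-08).

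KLLN, a nuclear protein that p53 is known to induce, was called with PMR-116 at 12 h. In Mv4;11 at 12 h its vehicle libraries at 27.4, 29.99 and 27.1 CPM stood against 62.3, 73.5 and 68.8 CPM with PMR-116. With CX-5461 at 12 h vehicle libraries at 29.2, 27.8 and 30.2 CPM stood against 25.7, 26.4 and 25.9 CPM. Every PMR-116 library lay above, and every CX-5461 library just below, the vehicle libraries. The log2 fold changes were 1.28 ± 0.09 (2.42-fold, adjusted p = 6.23e-11) and -0.16 ± 0.09 (adjusted p = 0.205), and at 3 h they were 0.22 ± 0.09 (adjusted p = 0.093) and -0.09 ± 0.09 (adjusted p = 0.605). The PMR-116 value at 3 h passed the threshold with a stricter filter (0.24, adjusted p = 0.0493), without PMR-116 replicate 2 (adjusted p = 0.025) and without vehicle replicate 3 (adjusted p = 0.0488).

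The library kit marks the strand, but the strand setting of the counting is not given in the sources used here. CDKN1A, PLK3 and KLLN overlap a gene on the opposite strand, so reads of the overlap may belong to either gene. CDKN1A overlaps the antisense RNA DINOL over 951 bases. DINOL, named after its values were seen, went from a mean of 0.0224 to 0.426 CPM with CX-5461 at 3 h (4.13 ± 0.82, adjusted p = 0.00131), and without a stated strand setting its reads cannot be told apart from those of CDKN1A.

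**Figure D2:**
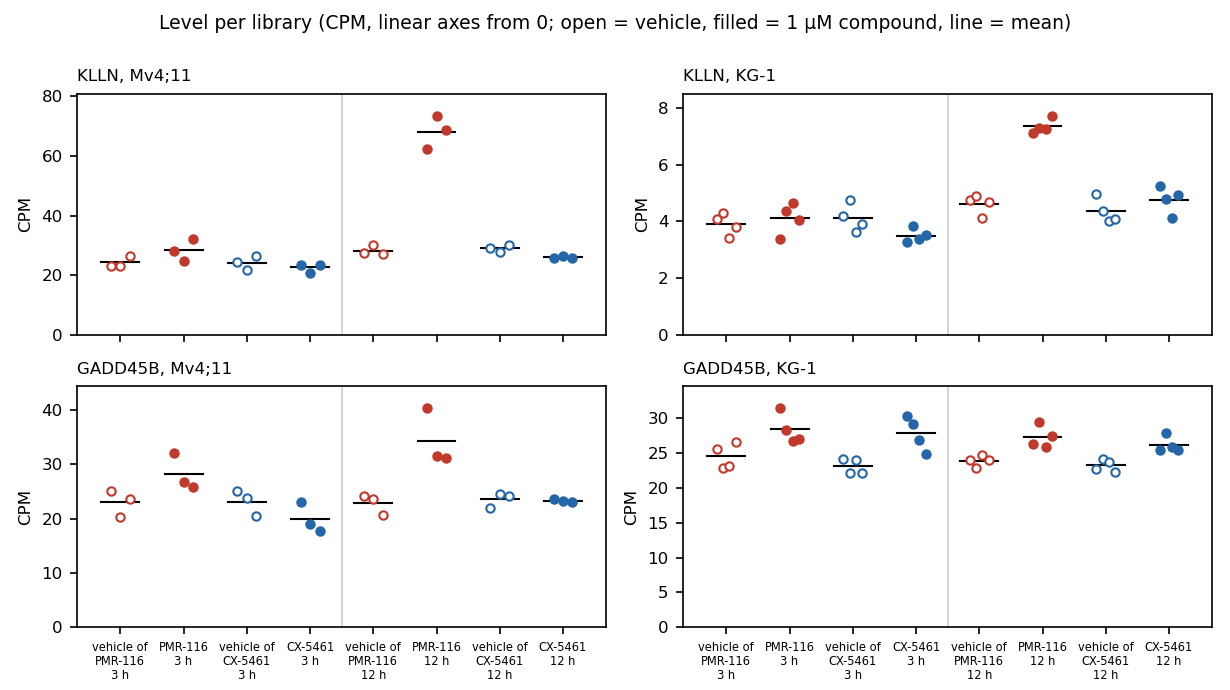
Level in CPM (linear axes from 0) of KLLN and GADD45B in every library, by line, compound and time; open points are vehicle, filled points treated libraries and lines group means. The KLLN libraries given PMR-116 for 12 h stand at 62.3 to 73.5 CPM in Mv4;11 and at 7.11 to 7.72 CPM in KG-1, above all other libraries of their line.

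SFN, which encodes the 14-3-3 sigma protein that holds cyclin B and CDK1 in the cytoplasm and is mainly an epithelial gene, was near absent. It had 0 to 4 counts per library in Mv4;11 and 1 to 13 in KG-1, and no change could be read at this depth. PHLDA3 in KG-1 had 0 to 13 counts per library. It was listed at 0 in the 4 vehicle libraries of PMR-116 at 12 h. PLK2 was tested in KG-1 on 10 to 44 counts per library and CDKN1A on 63 to 363, so changes of the same fold are measured less precisely there than in Mv4;11, where CDKN1A had 2879 to 44914 counts.

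In KG-1 fewer of the arrest genes were called, with log2 fold changes between 0.21 (GADD45B with PMR-116 at 3 h) and 0.96 (CDKN1A with CX-5461 at 12 h). Of 8 genes tested, 1 rose with PMR-116 at 3 h, 1 with CX-5461 at 3 h, 2 with PMR-116 at 12 h and 2 with CX-5461 at 12 h, and none fell. Over all genes of KG-1, 7.33%, 3.44%, 9.46% and 2.54% were called in these comparisons, and 3.61%, 1.85%, 4.73% and 1.36% as higher. Every treated library lay above every vehicle library for 2, 2, 3 and 3 of the 8 genes, against 7.07%, 5.39%, 6.56% and 3.93% of all genes. The median log2 fold change of the 8 genes was 0.03, 0.14, 0.17 and 0.14, and over all genes it was 0.00 in each. GADD45A, PLK2, PLK3 and ZMAT3 had log2 fold changes between -0.30 and 0.77, none of them called by edgeR or DESeq2.

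The calls that held when any 1 library was left out were those of KLLN and BTG2 with PMR-116 at 12 h. KLLN went from 4.75, 4.89, 4.11 and 4.69 CPM in vehicle to 7.11, 7.29, 7.26 and 7.72 CPM (log2 fold change 0.67 ± 0.11, adjusted p = 9.29e-05). BTG2 went from 6.86, 7.94, 7.03 and 8.42 CPM to 9.15, 11.4, 9.86 and 10.6 CPM (0.44 ± 0.08, adjusted p = 0.000611). The treated libraries of either gene did not overlap with vehicle. KLLN was thus higher with PMR-116 at 12 h in both lines.

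CDKN1A rose in KG-1 with CX-5461 at 12 h, from 1.86, 1.58, 2.88 and 2.85 CPM to 3.91, 3.84, 5.27 and 4.86 CPM. The groups did not overlap, though within each group replicates 3 and 4 lay above 1 and 2. The log2 fold change was 0.96 ± 0.24 (1.95-fold, adjusted p = 0.0224). The call was lost without vehicle replicate 1, vehicle replicate 2, treated replicate 3 or treated replicate 4 (highest adjusted p = 0.0978). In the other 3 comparisons its log2 fold changes were 0.39 ± 0.24, 0.62 ± 0.24 and 0.64 ± 0.24, with adjusted p of 0.383, 0.165 and 0.0919, for PMR-116 at 3 h, CX-5461 at 3 h and PMR-116 at 12 h. With a replicate block the value for CX-5461 at 3 h (0.64, adjusted p = 0.0123) and that for PMR-116 at 12 h (0.62, adjusted p = 0.00871) passed the threshold, and the latter also did without PMR-116 replicate 1 (adjusted p = 0.0474). BTG2 with CX-5461 at 12 h went from 6.96, 6.82, 7.40 and 7.18 CPM to 8.38, 10.03, 8.88 and 8.86 CPM (0.35 ± 0.08, adjusted p = 0.0153), and the call was lost without vehicle or treated replicate 2 (highest adjusted p = 0.083).

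GADD45B was the gene called in KG-1 at 3 h, which the genes with a strong rise in Mv4;11 were not. It went from 25.5, 22.8, 23.04 and 26.5 CPM to 31.4, 28.3, 26.7 and 26.96 CPM with PMR-116 (0.21 ± 0.07, adjusted p = 0.0495), and from 24.1, 22.1, 24.02 and 22.1 CPM to 30.3, 29.1, 26.8 and 24.8 CPM with CX-5461 (0.27 ± 0.07, adjusted p = 0.0192). Both steps were small and near the threshold. The first call was lost without any 1 of 6 of the 8 libraries, all but PMR-116 replicate 3 and vehicle replicate 4 (highest adjusted p = 0.208), and the other without CX-5461 replicate 1 or 2 or vehicle replicate 2 or 4 (highest adjusted p = 0.09997).

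**Figure D3:**
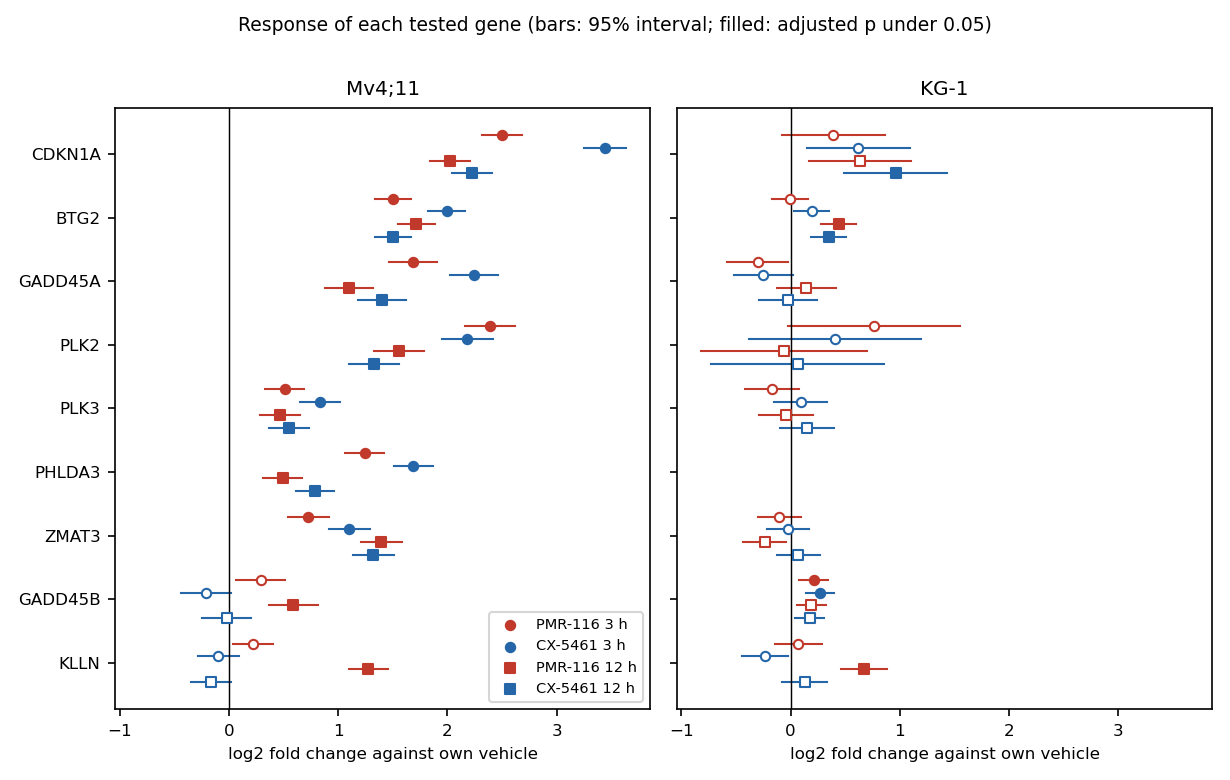
Log2 fold change against the compound's own vehicle (x axis) with 95% intervals for each tested gene, in the 4 comparisons of each line; filled points were called at an adjusted p under 0.05. In Mv4;11 the points of CDKN1A lie between 2.03 and 3.44, and in KG-1 its points lie between 0.39 and 0.96 with wide intervals.

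The lines differed in these effects when the difference itself was tested in a joint fit of both (23759 genes). Of 9 arrest genes tested, the effect was larger in Mv4;11 for 6 with PMR-116 at 3 h and 6 with CX-5461 at 3 h. At 12 h it was larger for 8 with PMR-116 and 5 with CX-5461. Over all genes 6.94%, 3.07%, 25.4% and 16.2% were called in that order, in either direction. The share with a larger effect in Mv4;11 was not counted. CDKN1A differed by 2.13, 2.85, 1.44 and 1.30 on the log2 scale and GADD45A by 2.05, 2.53, 1.02 and 1.45, in the same order. PLK3 with CX-5461 at 12 h, at 0.43 ± 0.17, missed the threshold (adjusted p = 0.0736). It passed with library totals, DESeq2, a stricter filter, a replicate block or each line fitted on its own (adjusted p from 0.0119 to 0.0393), and without KG-1 vehicle replicate 3 or CX-5461 replicate 2 (lowest adjusted p = 0.0309). GADD45B with CX-5461 at 3 h went the other way, at -0.44 (adjusted p = 0.0444), a call lost without any 1 of 7 of the 14 libraries. A difference of -4.55 for PHLDA3 with PMR-116 at 12 h rested on KG-1 libraries of 0 to 10 counts and is no measure of size. Line and labelled batch are the same split, so neither can be named as the source.

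The responses of Mv4;11 changed shape with time. Between 3 h and 12 h the effect of PMR-116 differed for 6 of 9 genes and that of CX-5461 for 5 of 9, where 27.6% and 16.7% of all genes were called. With PMR-116, CDKN1A fell by 0.48 on the log2 scale, GADD45A by 0.59, PLK2 by 0.83 and PHLDA3 by 0.75, while ZMAT3 gained 0.67 and KLLN 1.06 (highest adjusted p = 0.00686). With CX-5461, CDKN1A fell by 1.21, BTG2 by 0.49, GADD45A by 0.84, PLK2 by 0.86 and PHLDA3 by 0.90 (highest adjusted p = 0.00527). BTG2 with PMR-116 changed by 0.21 ± 0.12 (95% interval -0.02 to 0.44, adjusted p = 0.207) and GADD45B by 0.30 ± 0.16 (adjusted p = 0.183). With library totals both were called, at 0.34 (adjusted p = 0.0276) and 0.43 (adjusted p = 0.0435). In KG-1, where 1.69% of genes were called for PMR-116 and 0.263% for CX-5461, the effect of PMR-116 differed for 2 of 8 genes, BTG2 (0.45 ± 0.12, adjusted p = 0.0415) and KLLN (0.60 ± 0.15, adjusted p = 0.0349). The count for CX-5461 was 0 in edgeR's quasi-likelihood test and with DESeq2, and 1 at an unadjusted p under 0.05. Leaving out 1 library ended the calls for PMR-116 in 13 of 16 cases for BTG2 and 11 of 16 for KLLN.

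**Figure D4:**
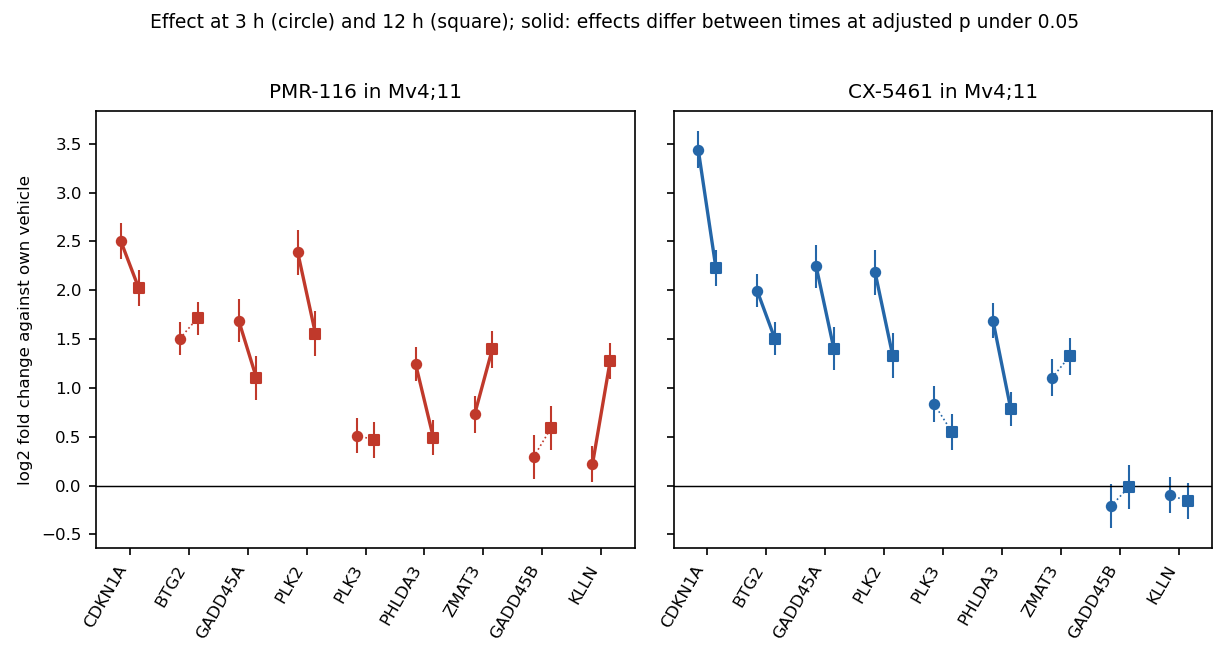
Log2 fold change in Mv4;11 at 3 h (circles) and 12 h (squares) for each tested gene, joined by a line that is solid where the difference between the times was called. CDKN1A, GADD45A, PLK2 and PHLDA3 move down with both compounds, and ZMAT3 and KLLN move up with PMR-116.

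The vehicle libraries were also compared between the times, as the background without compound. In Mv4;11, PLK3 fell by 0.23 and KLLN was higher by 0.24 at 12 h, 2 of 9 genes against 12.9% of all genes. In KG-1, BTG2 fell by 0.24, PLK3 by 0.43 and ZMAT3 by 0.36, 3 of 8 genes against 31.6% of all. The vehicles of PMR-116 and CX-5461 differed for 0 arrest genes in either line and at either time in edgeR's quasi-likelihood test, where 0% of all genes were called. At an unadjusted p under 0.05 the count of arrest genes was also 0 in these comparisons, as it was with DESeq2.

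The compounds were set against each other at the same dose and time, in 4 pairs of effects. In Mv4;11 at 3 h, where 1.34% of all genes differed, PMR-116 raised CDKN1A less than CX-5461 did, by -0.94 ± 0.13 on the log2 scale (95% interval -1.19 to -0.69, adjusted p = 0.000359). BTG2 differed by -0.49 ± 0.12 (adjusted p = 0.0375). GADD45A, at -0.56 ± 0.16 (adjusted p = 0.081), and PHLDA3, at -0.44 ± 0.13 (adjusted p = 0.0822), had the same sign and missed the threshold. Both passed it with DESeq2 (adjusted p = 0.0229 and 0.0243) and a stricter filter (0.04996 and 0.0383), and PHLDA3 also without the filter (0.0173). PLK3 (-0.33) and ZMAT3 (-0.37) had that sign too and were not called. GADD45B (0.50), KLLN (0.31) and PLK2 (0.20, interval -0.11 to 0.52) had the other sign and were not called. GADD45B was called without the filter (adjusted p = 0.0258). The BTG2 call was lost when 1 of 7 of the 12 libraries was left out. At 12 h, where 5.11% of all genes differed, CDKN1A no longer did (-0.20, 95% interval -0.45 to 0.05). KLLN then differed by 1.44 ± 0.13 (95% interval 1.18 to 1.70, adjusted p = 1.14e-06) and GADD45B by 0.61 ± 0.16 (adjusted p = 0.0274), both higher with PMR-116.

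The vehicle of PMR-116 at 12 h in Mv4;11, replicate 3, stood apart from its group. Its counts differed from those of its group mates by a chi-square of 75.1 and 90.5 per degree of freedom, against 7.03 to 17.5 in other pairs of Mv4;11. Without it, all 9 genes were still called with PMR-116 at 12 h, KLLN at 1.23 (adjusted p = 2.79e-09) and CDKN1A at 2.00. The KLLN difference between compounds was 1.41 without it. That of GADD45B was 0.55 and no longer called (adjusted p = 0.0674), a call that was lost without any 1 of 7 of the 12 libraries.

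In KG-1 0 of 8 arrest genes differed between compounds in edgeR's quasi-likelihood test, where 0.0107% and 0.0483% of all genes did at 3 h and 12 h. At an unadjusted p under 0.05 the counts were 0 and 2, and with DESeq2 they were 0 and 1, that of KLLN at 12 h (adjusted p = 0.0402). The largest difference was that of KLLN at 12 h, 0.54 ± 0.15 (95% interval 0.25 to 0.84, adjusted p = 0.187). The interval for CDKN1A was -0.89 to 0.44 at 3 h and -0.98 to 0.34 at 12 h, and both hold 0.

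**Figure D5:**
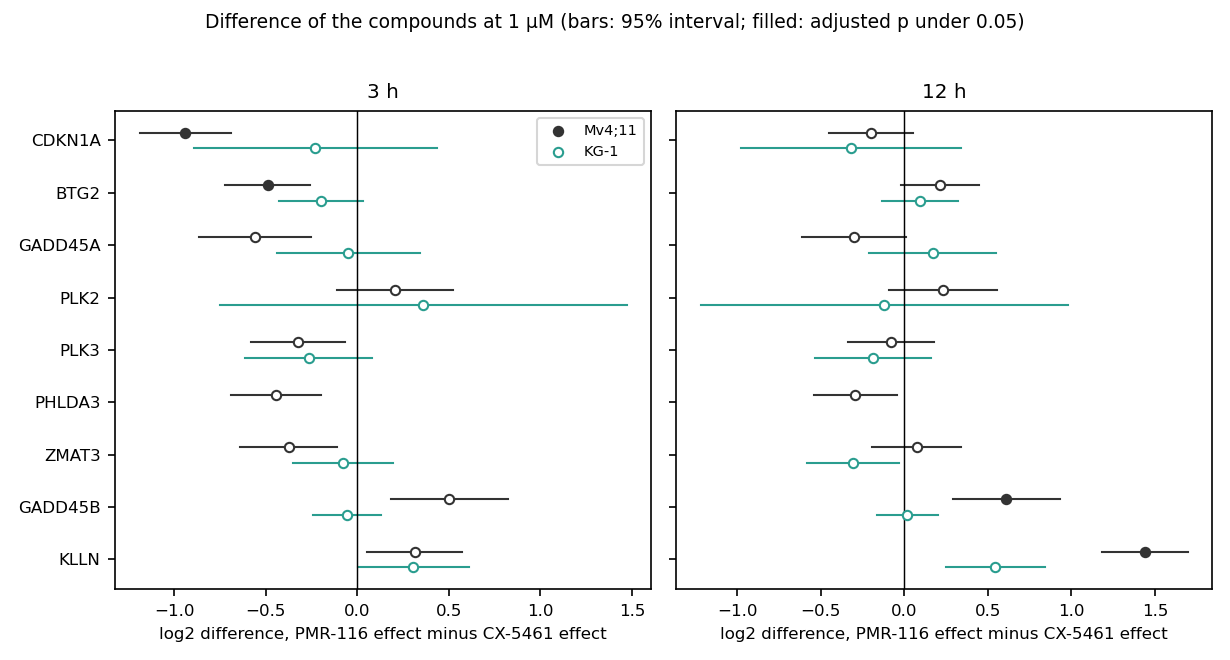
Difference of the log2 effects, PMR-116 minus CX-5461, with 95% intervals for each tested gene at 3 h and 12 h in both lines; filled points were called. CDKN1A at 3 h (-0.94) and KLLN at 12 h (1.44) in Mv4;11 stand farthest from 0 among the called points.

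Other targets of p53 were read from a list of 29 genes. In Mv4;11 all 29 were tested, and 24 rose with PMR-116 at 3 h, 27 with CX-5461 at 3 h, 22 with PMR-116 at 12 h and 25 with CX-5461 at 12 h, where 11%, 5.05%, 20.7% and 14.8% of all genes were called as higher. Their median log2 fold changes were 0.88, 1.35, 0.75 and 1.00. MDM2, which marks p53 for destruction, rose by 1.20, 2.13, 1.00 and 1.58 in that order. GDF15, a stress cytokine, rose by 3.42 ± 0.42 and 5.30 ± 0.40 at 3 h, and TP53I3, an oxidoreductase, by 3.32 ± 0.17 and 3.40 ± 0.17 at 12 h. The gene that fell was PMAIP1, which encodes the cell death protein NOXA, by 0.49 ± 0.15 with CX-5461 at 12 h. In KG-1 24 of the 29 were tested. APAF1 (0.33 ± 0.09) and PPM1D (0.31 ± 0.07) rose with PMR-116 at 3 h (1 of the 24 with library totals; 3.61% of all genes were called as higher), FDXR fell by 0.38 ± 0.10 with PMR-116 at 12 h, and 0 were called with CX-5461 at either time in edgeR's quasi-likelihood test (3 at 3 h and 1 at 12 h at an unadjusted p under 0.05). MDM2 was between -0.15 and 0.06 in KG-1. MDM4, a p53 inhibitor related to MDM2, fell in both lines in all comparisons but that of CX-5461 at 12 h, with PMR-116 at 3 h by 1.05 ± 0.17 in Mv4;11 and by 0.95 ± 0.18 in KG-1.

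The genes whose levels ran closest to those of the arrest genes over the 24 libraries of Mv4;11, by Pearson correlation of log2 CPM among 10747 genes, were largely other p53 targets or other arrest genes. For CDKN1A they were TP53INP1 (0.986), BTG2 (0.985) and GADD45A (0.983), and for BTG2 they were TP53INP1 (0.987), CDKN1A (0.985) and RRM2B (0.985). For GADD45A they were BBC3 (0.984), CDKN1A (0.983) and TNFRSF10B (0.973), and for PLK2 they were TNFRSF10B (0.983), IER5 (0.975) and PGF (0.975). The points are libraries of shared groups, so the groups' means carry most of each value. Over the 32 libraries of KG-1 the closest genes to CDKN1A were MAP3K6 (0.803), IL32 (0.782) and MASTL (0.766), and no gene exceeded 0.607 for PLK2.

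Relatives of the arrest genes moved in both directions in Mv4;11. Of 20 listed relatives (other CDK inhibitors, BTG and TOB proteins, polo-like kinases, PHLDA, ZMAT and 14-3-3 genes), 19 were tested in Mv4;11. Of these, 6 rose and 2 fell with PMR-116 at 3 h, 4 and 3 with CX-5461 at 3 h, 9 and 8 with PMR-116 at 12 h and 6 and 7 with CX-5461 at 12 h, where 24.1%, 11.7%, 43.2% and 31.4% of all genes were called in either direction. The CDK inhibitor CDKN1C rose by 3.01 ± 0.29 with PMR-116 and 1.82 ± 0.28 with CX-5461 at 12 h, and also in KG-1, by 0.72 ± 0.15 and 0.72 ± 0.16. PLK1, the mitotic relative of PLK2, fell by 0.95 ± 0.10 with CX-5461 at 3 h in Mv4;11. In KG-1 18 relatives were tested. At 3 h 4 rose and 0 fell with PMR-116, and 1 rose and 0 fell with CX-5461. At 12 h 4 rose and 0 fell with PMR-116, and 1 rose and 1 fell with CX-5461. Over all genes of KG-1, 7.33%, 3.44%, 9.46% and 2.54% were called in that order. With library totals 7 rose with PMR-116 at 12 h and 1 fell with CX-5461 at 3 h.

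Of 22 listed cell cycle genes, more fell than rose in each comparison of Mv4;11. At 3 h 7 fell and 2 rose with PMR-116 and 8 fell and 1 rose with CX-5461, and at 12 h 15 fell and 2 rose, and 16 fell and 1 rose. Those called in either direction were 9, 9, 17 and 17 of 22, against 24.1%, 11.7%, 43.2% and 31.4% of all genes. With library totals 6 fell and 5 rose with PMR-116 at 3 h, 8 fell and 2 rose with CX-5461 at 3 h, and 15 fell and 3 rose with CX-5461 at 12 h. At 12 h with PMR-116, CCNE2 fell by 2.27 ± 0.15, E2F1 by 2.19 ± 0.11 and MYBL2 by 1.91 ± 0.07. PCNA, the clamp of DNA replication, was higher by 0.71 ± 0.06 with CX-5461 at 3 h and fell by 0.27 ± 0.06 at 12 h. In KG-1 more of the 22 rose than fell in each comparison, 3 and 1, 5 and 1, 6 and 2, and 5 and 3, where 7.33%, 3.44%, 9.46% and 2.54% of all genes were called. With library totals 5 rose and 3 fell with CX-5461 at 3 h.

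Library totals were 28751758 to 41542156 counts in Mv4;11 and 31010072 to 72707757 in KG-1. Of 12 myeloid and progenitor markers, 10 had a mean of at least 1 CPM in Mv4;11 and 9 in KG-1, and their sum was 812 to 1244 CPM and 2742 to 3425 CPM. Markers of other cell types summed to 64.4 to 131 CPM and 227 to 279 CPM, with HBB at 0 in both and PECAM1 above 5 CPM in both, and CD3D and CD79A above 5 CPM in KG-1. Of the 11 myeloid markers tested in Mv4;11, 1 rose and 8 fell with PMR-116 at 3 h and 0 and 2 with CX-5461 at 3 h. With either compound at 12 h 5 rose and 1 fell. Over all genes 24.1% and 11.7% were called with PMR-116 and CX-5461 at 3 h, and 43.2% and 31.4% at 12 h. These are the times at which the arrest genes rose. The part of the markers in those results was not tested.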

How the data were processed

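Messenger RNA libraries of Mv4;11 and KG-1 were sequenced in bulk. The authors deposited estimated counts per gene symbol, 1 table per line; per the submitters' processing notes Salmon 1.5.2, DESeq2 and GRCh38.p13 were used, without their roles. No annotation release or strand setting is given in the sources used here. Only the KG-1 table is named as trimmed. In the table of Mv4;11, 24 columns matched no sample and were not used.

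Counts were rounded, then tested with edgeR 4.0.16 (R 4.3.3): filterByExpr (minimum count 10, total 15), TMM scaling, estimateDisp, glmQLFit and 2-sided glmQLFTest over the 8 groups of a line, or all 16 for differences between lines. Errors are standard errors from the test's F value. Intervals are 95% normal intervals. P-values were adjusted over all genes tested. DESeq2 1.42.0 was an alternative. The procedure was run on counts simulated from its own model. These hold no replicate effect, so the run cannot speak to such an effect in the real libraries. The genes named and the gene lists were chosen with earlier results of these data known: all 10 genes, up to 3 called genes per direction of other lists with the largest change, and MDM2. Other items of that rule are not reported here. Replicate numbers were not used to pair libraries in the main fit, and a replicate block was run as an alternative.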

Additional observations from a re-analysis of the deposited data

Results flagged for a closer look

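Among 80 sets of 4 libraries (1 gene in 1 group of KG-1, since groups of 3 were not examined), 5 had a library far from the other 3, and chance alone gives about 1 in 20. These were GADD45A in a vehicle library of PMR-116 at 3 h (2.39 CPM), PLK2 in a PMR-116 library at 12 h (0.821 CPM), PHLDA3 in a CX-5461 library at 3 h (0.220 CPM), and SFN in a CX-5461 library at 12 h (0.139 CPM) and in a vehicle library of PMR-116 at 12 h (0.133 CPM). All but GADD45A rest on few counts.

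Effects that differed between 12 h and 3 h in Mv4;11 were, with PMR-116 on the log2 scale, -0.48 for CDKN1A, -0.59 for GADD45A, -0.83 for PLK2, -0.75 for PHLDA3, 0.67 for ZMAT3 and 1.06 for KLLN. With CX-5461 they were -1.21 for CDKN1A, -0.49 for BTG2, -0.84 for GADD45A, -0.86 for PLK2 and -0.90 for PHLDA3. In KG-1 they were 0.45 for BTG2 and 0.60 for KLLN with PMR-116.

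Effects that differed between lines, Mv4;11 minus KG-1, cannot be told apart from batch. With PMR-116 at 3 h the differences were 2.13 for CDKN1A, 1.56 for BTG2, 2.05 for GADD45A, 1.68 for PLK2, 0.73 for PLK3 and 0.88 for ZMAT3. With CX-5461 at 3 h they were 2.85, 1.84, 2.53, 1.83, 0.78 and 1.16 for the same genes, and -0.44 for GADD45B. With PMR-116 at 12 h they were 1.44 for CDKN1A, 1.33 for BTG2, 1.02 for GADD45A, 0.46 for GADD45B, 1.69 for PLK2, 0.57 for PLK3, 1.69 for ZMAT3, 0.66 for KLLN and -4.55 for PHLDA3, the last with KG-1 vehicle at 0 counts. With CX-5461 at 12 h they were 1.30 for CDKN1A, 1.18 for BTG2, 1.45 for GADD45A, 1.30 for PLK2 and 1.28 for ZMAT3. The calls that ended without 1 library were GADD45B with CX-5461 at 3 h (7 of 14 libraries), GADD45B with PMR-116 at 12 h (Mv4;11 PMR-116 replicate 1, adjusted p up to 0.0805, and KG-1 vehicle replicate 3), PLK3 with PMR-116 at 12 h (KG-1 vehicle replicates 1 and 3, up to 0.0636) and PLK2 with CX-5461 at 12 h (KG-1 vehicle replicates 1 and 2 and CX-5461 replicate 1, up to 0.0654).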

How the results depend on the processing

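The 30 calls of a compound against vehicle in Mv4;11 held in every alternative run. Scaling by library totals moved the all-gene median there from 0.01 to 0.18 with PMR-116 and from 0.04 to 0.12 with CX-5461 at 12 h (log2 scale). Of the 6 such calls in KG-1, those of BTG2 and KLLN with PMR-116 at 12 h held in every alternative and the other 4 ended in some. The cause of the changes below was not tested, beyond fewer libraries or genes in a fit.

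In KG-1 the count of arrest genes called was 2 with CX-5461 at 12 h, and 1 without the filter, 1 with a stricter filter and 0 with the compared groups alone. With CX-5461 at 3 h it was 1, and 0 without the filter, 0 with the compared groups alone and 2 with a replicate block. With PMR-116 at 12 h it was 2, and 4 with the block. With PMR-116 at 3 h it was 1, and 0 with library totals, without the filter or with the compared groups alone. For PMR-116 against CX-5461 at 12 h it was 0, and 1 with DESeq2 or the block. For PMR-116 at 12 h against 3 h it was 2, and 0 without the filter or with the compared groups alone. In Mv4;11 the vehicle change gave 2, and 1 with the compared groups alone. PMR-116 against CX-5461 at 3 h gave 2, and 4 with DESeq2, without the filter or with a stricter filter, and 1 with the compared groups alone.

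All genes called in KG-1 with CX-5461 at 12 h were 473, and 800 with DESeq2, 268 without the filter, 1313 with the block and 71 with the compared groups alone. With CX-5461 at 3 h they were 640, then 1102, 371, 1733 and 332 in the same order. With PMR-116 at 12 h they were 1762, and 1152 without the filter, 3198 with the block and 911 with the compared groups alone. With PMR-116 at 3 h they were 1364, and 2599 with the block.

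Values near 0 changed sign in Mv4;11. GADD45B with CX-5461 at 12 h (-0.02) was 0.064 with library totals, 0.034 without the filter and 0.011 with a stricter filter. PLK3 for PMR-116 against CX-5461 at 12 h (-0.08) was 0.0090 with library totals, KLLN for CX-5461 at 12 h against 3 h (-0.07) was 0.0043 and PLK3 for PMR-116 at 12 h against 3 h (-0.04) was 0.086, and 0.0070 without the filter.

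Leaving out 1 library at a time gave these ranges in KG-1. With CX-5461 at 12 h, GADD45A was -0.12 to 0.043, PLK2 -0.15 to 0.20 and ZMAT3 -0.042 to 0.15, with 0 to 2 arrest genes and 288 to 401 genes called. With CX-5461 at 3 h, ZMAT3 was -0.060 to 0.022, with 0 to 1 arrest genes and 362 to 582 genes called. With PMR-116 at 12 h, PLK2 was -0.60 to 0.22 and PLK3 -0.094 to 0.017. With PMR-116 at 3 h, BTG2 was -0.035 to 0.023, with 0 to 1 arrest genes and 901 to 1279 genes called. For PMR-116 against CX-5461, GADD45B was -0.025 to 0.049 and PLK2 -0.66 to 0.16 at 12 h, and GADD45A -0.19 to 0.049 at 3 h. For PMR-116 at 12 h against 3 h, 0 to 2 arrest genes were called. In Mv4;11, GADD45B with CX-5461 at 12 h was -0.068 to 0.0053, and CX-5461 at 3 h called 1573 to 1948 genes against 2390 with all libraries. The vehicle change called 0 to 2 arrest genes. For PMR-116 against CX-5461, 1 to 4 arrest genes were called at 3 h and 1 to 2 at 12 h, where ZMAT3 was -0.039 to 0.14. PLK3 for PMR-116 at 12 h against 3 h was -0.12 to 0.0079. The difference between lines for GADD45B with PMR-116 at 3 h was -0.033 to 0.15.

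The replicate numbers were not taken as pairs in the main fit. Same-numbered libraries correlated at -0.013 to 0.238, and in no comparison did every pair exceed 0.1. The median between differently numbered libraries was -0.054 to -0.009. In KG-1 the same-numbered vehicle was the best match for 4 of 4 libraries with PMR-116 at 3 h and for 3 of 4 in the other comparisons. In Mv4;11 it was so for 1 of 3 with PMR-116 at 12 h and for 3 of 3 in the others. In most comparisons the same number was thus the best match, though the correlations were low, and the main fit leaves out such a likeness. In KG-1 more genes were called with the block than without it, 1313 against 473 with CX-5461 at 12 h and 3198 against 1762 with PMR-116 at 12 h. The counts of calls in KG-1 therefore depend on this choice, and a pairing is not excluded. With the block, CDKN1A in KG-1 passed the threshold with CX-5461 at 3 h (0.64, adjusted p = 0.0123) and PMR-116 at 12 h (0.62, adjusted p = 0.00871), as did GADD45B with PMR-116 at 12 h (0.19, adjusted p = 0.0361).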
